A study of Mus musculus with 8 samples.

Results

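Matrix metalloproteinases (MMPs) are secreted or membrane-bound proteases that cut the matrix around cells, and the tissue inhibitors of metalloproteinases (TIMPs) block them. The 10 genes described here, 7 MMPs and 3 TIMPs, are 10 of the 15653 genes named on arrays of cultured mouse fibroblasts. They were selected on their levels on these same 8 arrays, so their differences between the lines are given as a description and not as a test. Of 22523 probe sets they take 11, and the 2 probe sets of Timp1 carry the same values and count once, which leaves 10.

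The study compared gene expression between cultures that renew themselves asymmetrically, where 1 daughter of a division keeps cycling, and cultures that renew symmetrically. RNA of biological replicates was hybridized to Affymetrix mouse arrays, 1 preparation to an array. ASYM cultures are Ind-8 cells (3 arrays), p53-null fetal fibroblasts that carry a p53 cDNA under a modified metallothionein promoter activated by zinc. SYM cultures are Con-3 cells (3 arrays), which lack that cDNA; the labels call them the congenic parent of Ind-8 and the methods call them a vector control line. The p53SYM cultures are tI-3 cells (2 arrays), derived from Ind-8 and carrying in addition a constitutive IMPDH II transgene. All 3 lines share the p53-null background and were kept for 48 h in medium with 65 µM zinc chloride, 10% dialyzed serum and 5 µg/ml puromycin, and the p53SYM medium also held G418. Each state is represented by 1 line, so state and line cannot be told apart, and neither can G418 and the p53SYM state.

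Values are log2 expression levels after robust multi-array averaging (RMA), and a difference of 1 is a doubling. The number of arrays limits the precision, most of all for p53SYM. The median of all probe sets was 6.12 to 6.19 on the 8 arrays. The 25th percentile of the mean level over the probe sets, used here as a mark of dim signal, was 4.30.

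Some arrays stood apart in their control probe sets. The 3 probe sets for 18S ribosomal RNA averaged 10.63 on SYM replicate 3 and 5.58 to 6.46 on the other 7 arrays. The 14 hybridization-control probe sets had means of 9.43 and 9.71 for p53SYM and 9.62 for SYM replicate 3, against 8.98 to 9.16 for the other 5 arrays. The members are therefore given with and without SYM replicate 3, and fits with the hybridization-control level as a covariate were among the alternatives.

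The labels were checked against marker genes. The p53 target Cdkn1a read 9.70, 9.70 and 9.59 on the ASYM arrays, 5.73, 5.81 and 6.03 on the SYM arrays and 7.55 and 7.33 on the p53SYM arrays. Its level rose by 3.81 ± 0.11 (difference ± SE) from SYM to ASYM in the limma fit (adjusted p 1.91e-08), and by 1.59 from SYM to p53SYM (adjusted p 1.93e-05). Trp53 itself read 5.68 to 5.87 in ASYM, 5.21 to 5.29 in SYM and 5.60 to 5.69 in p53SYM. Impdh2 read 12.16 to 12.22 in ASYM, 12.51 to 12.56 in SYM and 12.34 to 12.38 in p53SYM, so the line with the transgene was not above the SYM line on this probe set. Where the probes lie relative to the transgene cDNAs is not given in the sources used, so these probe sets do not check the transgenes.

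Fibroblast markers were present with gaps. Of 10 fibroblast markers, Vim was the brightest, Thy1 lay under the 25th percentile, and Dcn read no higher than 5.91. In the limma fit Col1a1 (−1.06, adjusted p 0.00474), Col3a1 (−2.68, adjusted p 0.000621) and Pdgfra (−1.04, adjusted p 0.00301) were called lower in p53SYM than in SYM and 3 of the 10 higher. In ASYM against p53SYM, 5 were called higher and 1 lower, and in ASYM against SYM 2 were called higher and 1 lower. Among all probe sets, limma called 10.2% higher and 15.1% lower in p53SYM against SYM. The shares were 15.6% and 15.5% in ASYM against p53SYM, and 10.9% and 11.0% in ASYM against SYM. The summed level of the fibroblast list was 15.64, 15.76 and 15.74 in ASYM, 15.35, 15.45 and 15.46 in SYM and 15.45 and 15.29 in p53SYM. Of 5 endothelial markers, 4 (Pecam1, Cdh5, Tek and Tie1) lay under the 25th percentile. The other, Kdr, had means of 5.84, 6.16 and 6.60 in ASYM, SYM and p53SYM and was called by limma in all 3 comparisons (adjusted p 0.0377 for ASYM against SYM, 0.000877 for ASYM against p53SYM and 0.0133 for p53SYM against SYM), and the list summed to 6.79 to 6.96, 7.04 to 7.20 and 7.29 to 7.45. Of 6 epithelial markers, 4 (Epcam, Cdh1, Krt14 and Krt18) lay under the 25th percentile, and the list, led by Krt5, summed to 6.86 to 6.93 in ASYM, 6.65 to 7.06 in SYM and 7.02 to 7.18 in p53SYM. The macrophage list, 6 of 7 matched, had Ptprc, Adgre1 and Itgam under the 25th percentile, while its brightest gene, Cd14, gave the list a summed level of 8.24 to 8.80 in ASYM, 9.43 to 9.76 in SYM and 9.98 to 10.26 in p53SYM. Cd14 was called lower in ASYM than in SYM (−1.27, adjusted p 0.0013) and than in p53SYM (−1.86, adjusted p 0.000286), where Csf1r and Adgre1 were also called lower. The cartilage and bone list, 7 of 9 matched, was led by Col2a1 and summed to 11.37 to 11.92 in ASYM, 11.76 to 12.28 in SYM and 8.48 and 8.60 in p53SYM. Col2a1 and Runx2 (−0.43, adjusted p 0.0212) were the 2 of 7 called lower in p53SYM than in SYM, and the median difference of the list was 0.06. In ASYM minus SYM, Col10a1 was the 1 of 7 called higher by limma (1.74, adjusted p 0.000224), and 0 were called lower. Sox9, Col2a1, Acan, Runx2, Ibsp and Alpl had negative differences there, and the median difference of the list was −0.17. The part of these markers in the results on the proteases was not tested.

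MMPs are made as inactive precursors, and activation, often by another protease, removes a propeptide. Collagenases open the fibrillar collagens, gelatinases cut denatured collagen and basement membrane, stromelysins have broad substrates and can activate other MMPs, and membrane-type enzymes work at the cell surface. TIMPs bind the active site of the enzymes, and fibroblasts are a main source of both, and several MMP genes can be switched on through AP-1 sites near their start.

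Mmp13 encodes the collagenase of mouse fibroblasts, Mmp3 encodes stromelysin 1 and Mmp10 encodes stromelysin 2. In the group of MMP genes on chromosome 9 they are 3 of 10 neighbours. Their promoters are shown because the p53SYM arrays lay above all other arrays for these 3 genes. The p53SYM mean was also the highest for Mmp9, Mmp19 and Timp2, whose p53SYM arrays overlapped those of another line. The windows run from 250 bases before to 50 after the start of each gene (RefSeq, GRCm38.p6, all on the + strand), at chr9:7272264-7272563 for Mmp13, chr9:7445572-7445871 for Mmp3 and chr9:7502092-7502391 for Mmp10. Capitals mark matches to TGANTCA, the AP-1 motif, to AGGAAG, an ETS motif, to TATAAA, the TATA box, and to GGGCGG, the GC box, each searched on both strands.
Mmp13: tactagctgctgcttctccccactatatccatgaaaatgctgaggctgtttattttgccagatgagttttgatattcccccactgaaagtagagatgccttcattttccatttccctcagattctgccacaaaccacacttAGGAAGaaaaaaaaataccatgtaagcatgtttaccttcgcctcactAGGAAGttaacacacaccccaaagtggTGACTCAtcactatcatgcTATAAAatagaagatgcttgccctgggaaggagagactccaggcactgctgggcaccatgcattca
Mmp3: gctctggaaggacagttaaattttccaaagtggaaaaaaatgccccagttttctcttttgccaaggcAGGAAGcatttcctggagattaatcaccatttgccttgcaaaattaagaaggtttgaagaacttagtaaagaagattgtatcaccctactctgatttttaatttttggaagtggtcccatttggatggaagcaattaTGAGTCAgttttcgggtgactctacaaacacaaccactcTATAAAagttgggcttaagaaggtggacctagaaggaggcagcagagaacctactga
Mmp10: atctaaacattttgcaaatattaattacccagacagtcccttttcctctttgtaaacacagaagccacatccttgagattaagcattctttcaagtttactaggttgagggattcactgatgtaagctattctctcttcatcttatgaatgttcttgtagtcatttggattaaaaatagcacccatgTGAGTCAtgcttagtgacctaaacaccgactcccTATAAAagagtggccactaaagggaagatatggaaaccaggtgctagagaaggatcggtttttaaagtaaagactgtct

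A TGANTCA match lies 35 bases before the start in Mmp13, 46 before it in Mmp3 and 63 before it in Mmp10. Among all 32851 promoters of the table, 7.81% hold that motif, 35.4% hold AGGAAG, 13.6% hold TATAAA and 35.7% hold GGGCGG. All 3 promoters hold TATAAA, and Mmp13 and Mmp3 hold AGGAAG. RefSeq promoters matched 7 of the 10 members. In the other 4, Mmp14, Timp1, Timp2 and Timp3, no TGANTCA match was found, GGGCGG was found in each, and AGGAAG was found in Mmp14, Timp1 and Timp3. Mmp2, Mmp9 and Mmp19 were not matched. A match is a description of letters in this window and says nothing of binding.

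Mmp13 differed most between the lines. It read 7.97, 6.87 and 5.38 on the ASYM arrays, 6.29, 4.20 and 3.89 on the SYM arrays and 10.08 and 9.32 on the p53SYM arrays. The p53SYM arrays were the highest of all, and the ASYM and SYM arrays overlapped. The level was higher in p53SYM than in SYM by 4.91 ± 0.76 and higher in ASYM than in SYM by 1.95 ± 0.68, and ASYM minus p53SYM was −2.96 ± 0.76. With 1 array left out at a time, the first ran from 4.45 to 5.66, the last from −3.58 to −2.28, and ASYM minus SYM ran from 1.33 to 2.696. With the hybridization-control covariate they were 5.81, −4.63 and 1.17, in the same order. The SYM replicates 2 and 3 read under the 4.30 mark of dim signal, so the size of the differences from SYM, and their ranks, are only as good as values at the dim end. With SYM replicate 3 left out, p53SYM minus SYM was 4.45 and ASYM minus SYM was 1.49. In bulk cultures, fewer cells that make a transcript and less transcript per cell cannot be told apart.

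The spread within a line was also wide for Mmp13. Its pooled SD within groups was 1.19, rank 5 of the 22523 probe sets, where the median SD was 0.132. The p53SYM minus SYM difference was rank 4 by absolute size, and it was the highest positive difference of that comparison. The ASYM arrays alone lay farther apart for this gene than the means of any pair of lines did for each of the other 9 members.

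Mmp3 had the same order of the lines at a smaller range. It read 5.94, 6.24 and 5.48 on the ASYM arrays, 5.49, 4.94 and 5.03 on the SYM arrays and 7.67 and 6.90 on the p53SYM arrays. The p53SYM arrays again lay above the rest, and the lowest ASYM array fell within the SYM range. The difference p53SYM minus SYM was 2.13 ± 0.26 (4.38-fold), ASYM minus SYM was 0.73 ± 0.23 and ASYM minus p53SYM was −1.40 ± 0.26. The first was 2.07 and the second 0.67 without SYM replicate 3. With the hybridization-control covariate the second was 0.49 and ASYM minus p53SYM was −1.93. Its pooled SD of 0.389 was rank 297 of 22523.

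Mmp10 moved over a narrow range near the dim end. It read 5.18, 5.17 and 4.92 on the ASYM arrays, 4.74, 4.81 and 4.96 on the SYM arrays and 5.30 and 5.23 on the p53SYM arrays. The p53SYM arrays were above the others, while ASYM and SYM overlapped at 4.92 and 4.96. The differences were 0.43 ± 0.11 for p53SYM minus SYM, 0.25 ± 0.10 for ASYM minus SYM and −0.18 ± 0.11 for ASYM minus p53SYM. The first became 0.49 and the second 0.32 without SYM replicate 3. ASYM minus p53SYM was −0.046 with the hybridization-control covariate, −0.030 with arrays quantile-normalized again and −0.095 at its smallest with 1 array left out. Its limma call in p53SYM against SYM was lost in 6 of the alternatives, which are the covariate (0.36), the quantile normalization (0.32) and leaving out SYM replicate 1 (0.39), SYM replicate 2 (0.42), p53SYM replicate 1 (0.40) or p53SYM replicate 2 (0.47).

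**Figure D1:**
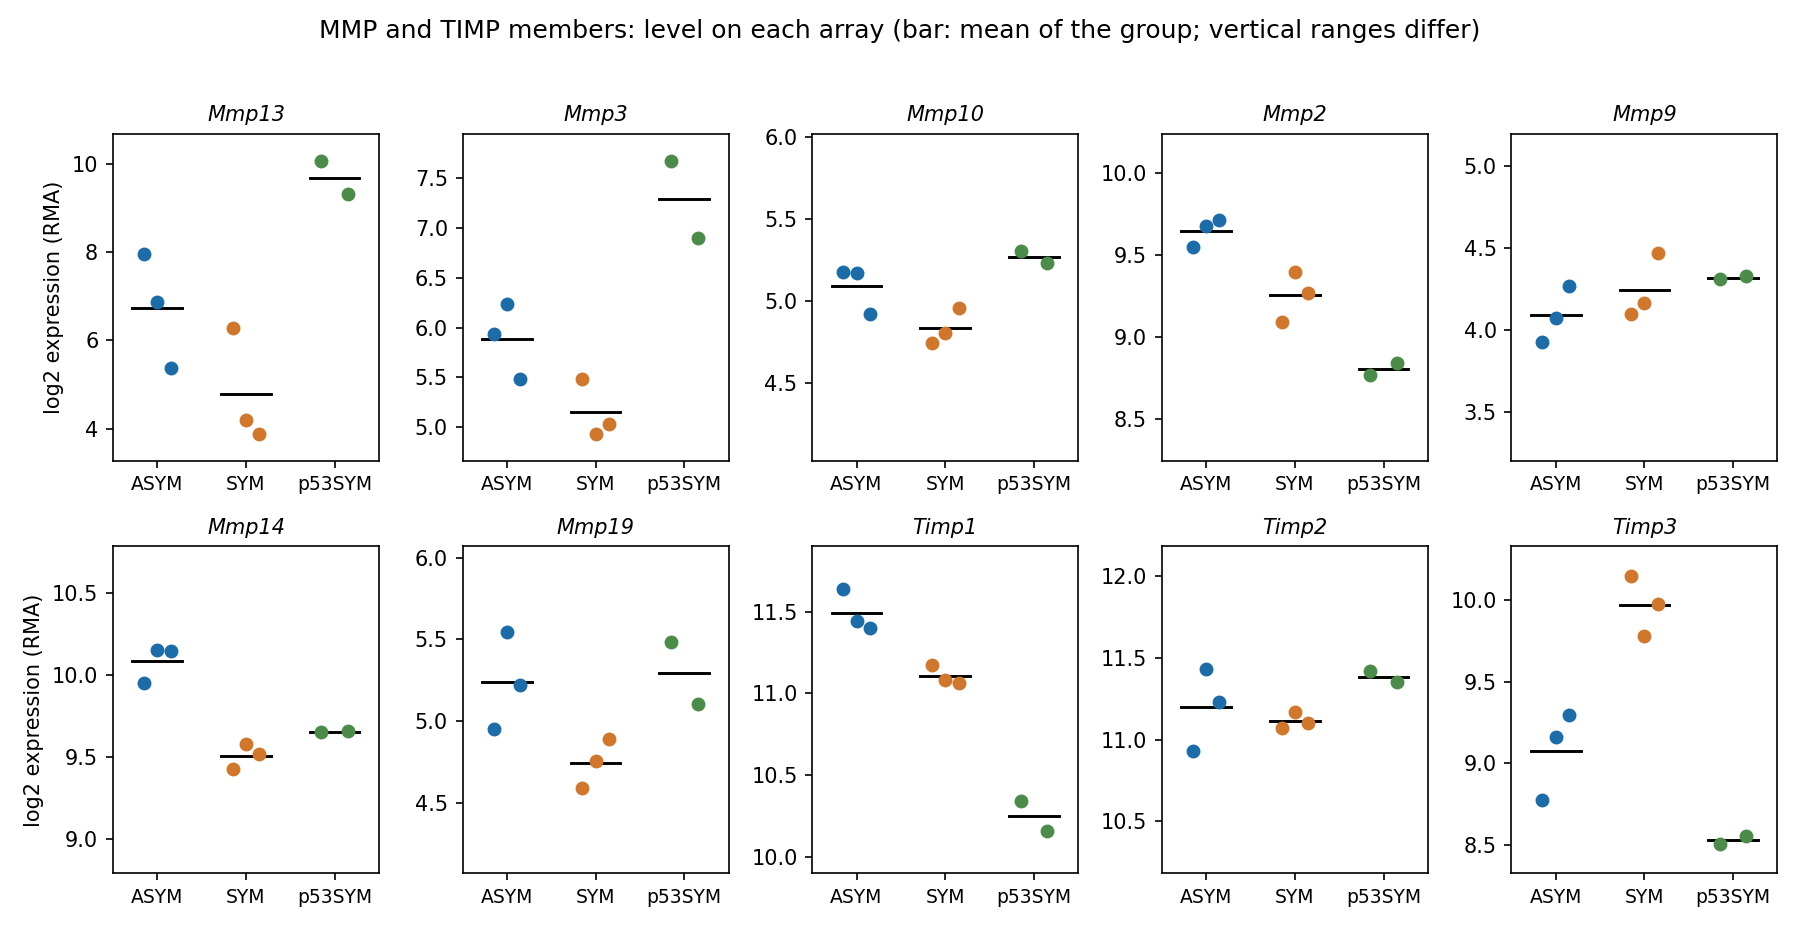
Level of each member on each array, as log2 RMA expression on the vertical axis, with ASYM, SYM and p53SYM arrays as points and the group mean as a bar; the vertical ranges differ between panels. Mmp13 spans 3.89 to 10.08, and the p53SYM points of Timp1 and Timp3 lie below all others.

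Mmp2 encodes gelatinase A, and p53SYM was its lowest line. It read 9.55, 9.68 and 9.72 on the ASYM arrays, 9.09, 9.40 and 9.27 on the SYM arrays and 8.77 and 8.84 on the p53SYM arrays. No group overlapped another, with ASYM highest and p53SYM lowest. ASYM exceeded SYM by 0.40 ± 0.10 and p53SYM by 0.85 ± 0.11, and p53SYM minus SYM was −0.45 ± 0.11. Without SYM replicate 3 the ASYM and SYM difference was 0.40 and p53SYM minus SYM was −0.44.

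Mmp9, gelatinase B, was the only member whose mean level, 4.21, lay under the 25th percentile. It read 3.93, 4.08 and 4.27 on the ASYM arrays, 4.10, 4.17 and 4.47 on the SYM arrays and 4.31 and 4.33 on the p53SYM arrays. The ASYM and SYM arrays overlapped, and so did SYM and p53SYM. ASYM minus SYM was −0.15 ± 0.12, ASYM minus p53SYM was −0.23 ± 0.14 and p53SYM minus SYM was 0.07 ± 0.14, the last 2 taking the opposite sign, 0.07 and −0.087, with the hybridization-control covariate. Without SYM replicate 3, ASYM minus SYM was −0.042 and p53SYM minus SYM 0.19.

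Mmp14 encodes a membrane-type MMP that activates the precursor of gelatinase A. It read 9.95, 10.15 and 10.15 on the ASYM arrays, 9.42, 9.58 and 9.52 on the SYM arrays and 9.65 and 9.66 on the p53SYM arrays. ASYM stood above both other lines with no overlap, and p53SYM lay just above SYM. ASYM exceeded SYM by 0.58 ± 0.091 and p53SYM by 0.43 ± 0.10, and p53SYM minus SYM was 0.15 ± 0.10. Leaving out SYM replicate 3 gave 0.58 again, and 0.15 for p53SYM minus SYM. Mmp14 and Mmp2 were thus both highest in ASYM, but p53SYM was the lowest line for Mmp2 and not for Mmp14.

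Mmp19 encodes an MMP outside the classical groups. It read 4.95, 5.55 and 5.22 on the ASYM arrays, 4.59, 4.76 and 4.89 on the SYM arrays and 5.49 and 5.10 on the p53SYM arrays. SYM was the lowest line with no overlap, and ASYM and p53SYM overlapped. ASYM minus SYM was 0.49 ± 0.16, p53SYM minus SYM was 0.55 ± 0.18 and ASYM minus p53SYM was −0.05 ± 0.18. The last ran from −0.25 to 0.14 with 1 array left out at a time, so its sign depended on the array. Leaving out SYM replicate 3 gave 0.57 for ASYM minus SYM and 0.62 for p53SYM minus SYM.

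Among the inhibitors, Timp1 and Timp3 were both lowest in p53SYM and Timp2 was not. Timp1, whose protein is secreted, read 11.64, 11.44 and 11.40 on the ASYM arrays, 11.18, 11.09 and 11.06 on the SYM arrays and 10.34 and 10.16 on the p53SYM arrays. No group overlapped another, with the order ASYM, SYM, p53SYM. ASYM exceeded p53SYM by 1.24 ± 0.11 (2.37-fold) and SYM by 0.39 ± 0.098, and p53SYM minus SYM was −0.86 ± 0.11. Without SYM replicate 3, p53SYM minus SYM was −0.88 and ASYM minus SYM was 0.36.

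Timp2 encodes an inhibitor that also takes part in the activation of gelatinase A by Mmp14. It read 10.93, 11.43 and 11.23 on the ASYM arrays, 11.07, 11.17 and 11.10 on the SYM arrays and 11.42 and 11.35 on the p53SYM arrays. The ASYM arrays spanned both other lines, and p53SYM lay above SYM. ASYM minus SYM was 0.08 ± 0.12 (−0.03 to 0.22 with 1 array left out at a time), ASYM minus p53SYM was −0.19 ± 0.13 (−0.30 to −0.054) and p53SYM minus SYM was 0.27 ± 0.13. Leaving out SYM replicate 3 gave 0.08 for ASYM minus SYM and 0.26 for p53SYM minus SYM.

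Timp3 encodes the inhibitor that binds to the matrix and also blocks several ADAM and ADAMTS proteases. It read 8.77, 9.16 and 9.29 on the ASYM arrays, 10.15, 9.78 and 9.97 on the SYM arrays and 8.51 and 8.56 on the p53SYM arrays. SYM was highest and p53SYM lowest, with no overlap between any pair of lines. ASYM minus SYM was −0.89 ± 0.14, ASYM minus p53SYM was 0.54 ± 0.16 and p53SYM minus SYM was −1.43 ± 0.16. Without SYM replicate 3, ASYM minus SYM was −0.89 and p53SYM minus SYM was −1.43. This was the only member for which SYM was the highest line beyond the spread of its arrays, although Mmp9 had a SYM array as its highest.

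**Figure D2:**
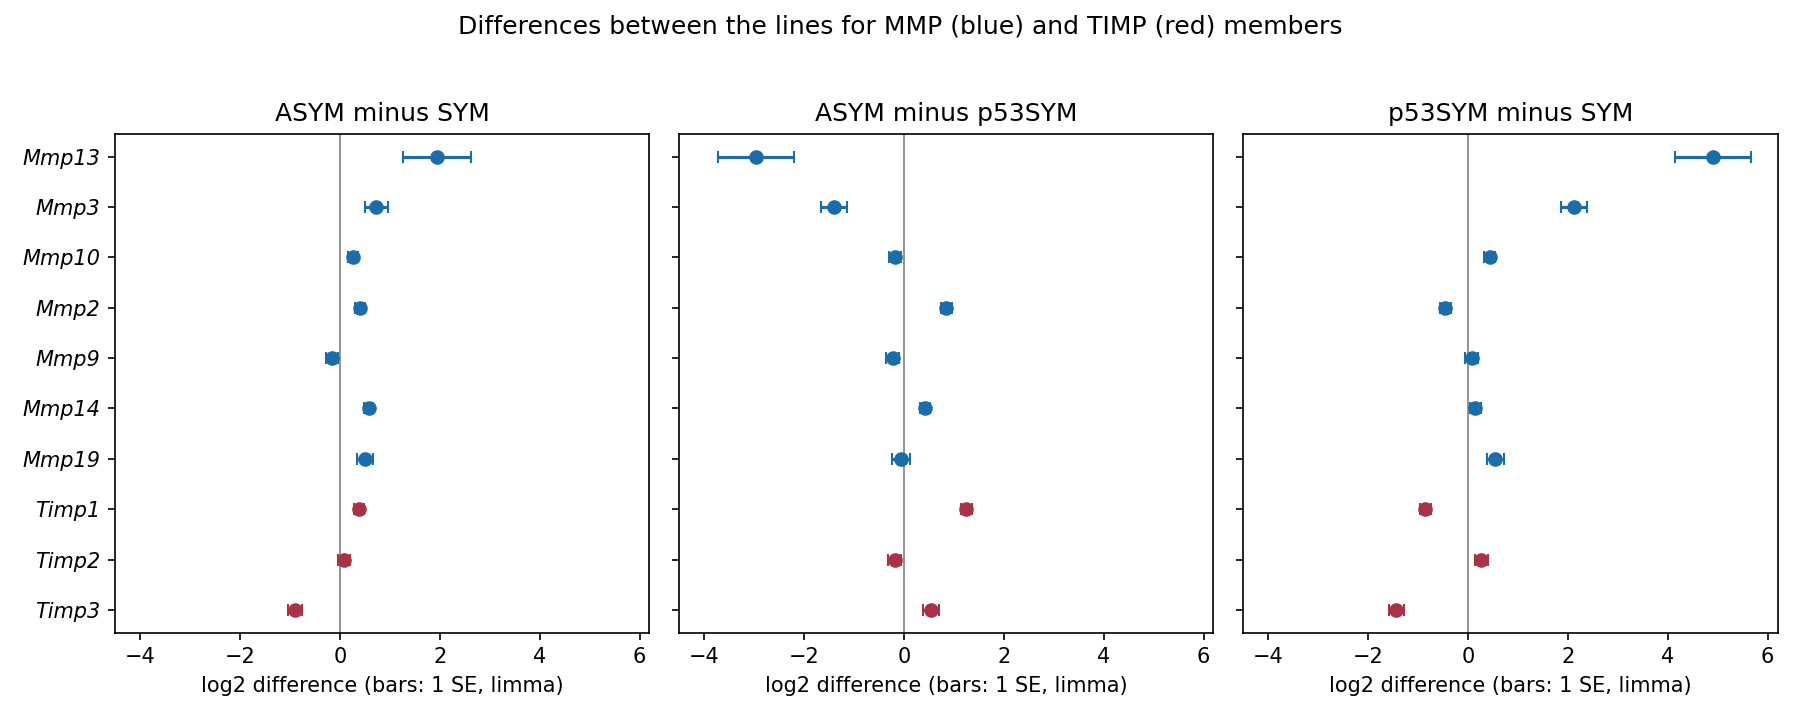
Log2 difference of each member in the 3 comparisons on the horizontal axis, with points for the limma estimate and bars for 1 SE; MMPs are blue and TIMPs red. Mmp13 has the widest bars and reaches 4.91 in p53SYM minus SYM, while Timp3 is at −1.43 there.

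Members called by the tests are counted here beside the share over all probe sets, and nothing is read from the counts, since the members were chosen by these values. The 3 comparisons share arrays. By limma at an adjusted p under 0.05, 5 members were higher in ASYM than in SYM (10.9% of all probe sets) and 1 was lower (11.0%). Against p53SYM, ASYM was higher for 4 members (15.6%) and lower for 2 (15.5%). In p53SYM against SYM, 4 members were higher (10.2%) and 3 were lower (15.1%). The median difference of the 10 members was 0.39 for ASYM minus SYM, −0.12 for ASYM minus p53SYM and 0.21 for p53SYM minus SYM, beside −0.06, −0.06 and 0.04 over all probe sets. Without SYM replicate 3 the limma count for ASYM against SYM was 3 in place of 6, and it was also 3 without ASYM replicate 2 or SYM replicate 2, while the count over all probe sets went from 4942 to 3650, 3493 and 3806. For ASYM against p53SYM it was 3 without either p53SYM array, in place of 6 (4914 without replicate 1 and 2781 without replicate 2 over all probe sets, in place of 7009), and for p53SYM against SYM it was 4 without either p53SYM array or SYM replicate 2, in place of 7 (4200, 3093 and 4222 over all probe sets, in place of 5715).

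The rank product test, which is the one the study's methods name, called fewer; it was run for the comparisons with ASYM. At a percent false positive (pfp) under 0.05, Mmp13 was the 1 member higher in ASYM than in SYM (2.22% of all probe sets) and Timp3 the 1 lower (1.43%). Mmp13 was called here although its arrays overlap and limma on all arrays did not call it; limma did call it with the replicate number as a block, without ASYM replicate 3 (a difference of 2.63) and without SYM replicate 1. Without ASYM replicate 1 neither was called, and without any 1 SYM array only Mmp13 was. Against p53SYM, Timp1 was higher in ASYM (1.59%), and Mmp3 and Mmp13 were lower (0.435%). With any 1 of the 5 arrays left out Timp1 was not called, without ASYM replicate 3 only Mmp13 was, and with either p53SYM array left out no member was.

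The members were set beside the genes with the most similar profile over the 8 arrays, measured by the root mean square (RMS) difference after each profile was centred on its own mean. For Mmp13, the MMP with the widest range of group means, these were Fabp4 (RMS 0.898), Pate14 (1.06), Slc22a29 (1.14), Ica1 (1.22) and Rragd (1.28). For Timp3, the TIMP with the widest range, they were Gpr180 (0.143), Shroom2 (0.151), Enah (0.168), Tgds (0.170) and Ccnb1ip1 (0.173). The nearest profiles of Mmp13 lay farther from it than those of Timp3 from Timp3, and its values ranged more widely.

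Other MMP genes lie among Mmp13, Mmp3 and Mmp10 on chromosome 9. The order there is Mmp13, Mmp12, Mmp1b, Mmp3, Mmp1a, Mmp10, Mmp8, Mmp27, Mmp20 and Mmp7 in the RefSeq annotation of GRCm38.p6, and Mmp27 was not matched to a probe set. The 6 other genes with a probe set read 3.17 to 5.18 on the arrays, at or near the dim end, and limma called 0 of them in any comparison; at an unadjusted p under 0.05 it would be 0 in ASYM against SYM and 1 in each of the other comparisons, and the rank product test, which was not run for p53SYM against SYM, called 0 in the comparisons with ASYM. Their p53SYM minus SYM differences lay between −0.07 and 0.24, beside 4.91, 2.13 and 0.43 for the members, and their ASYM minus p53SYM differences lay between −0.42 and 0.06, beside −2.96, −1.40 and −0.18. At such levels a difference may not have been detectable on these arrays.

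**Figure D3:**
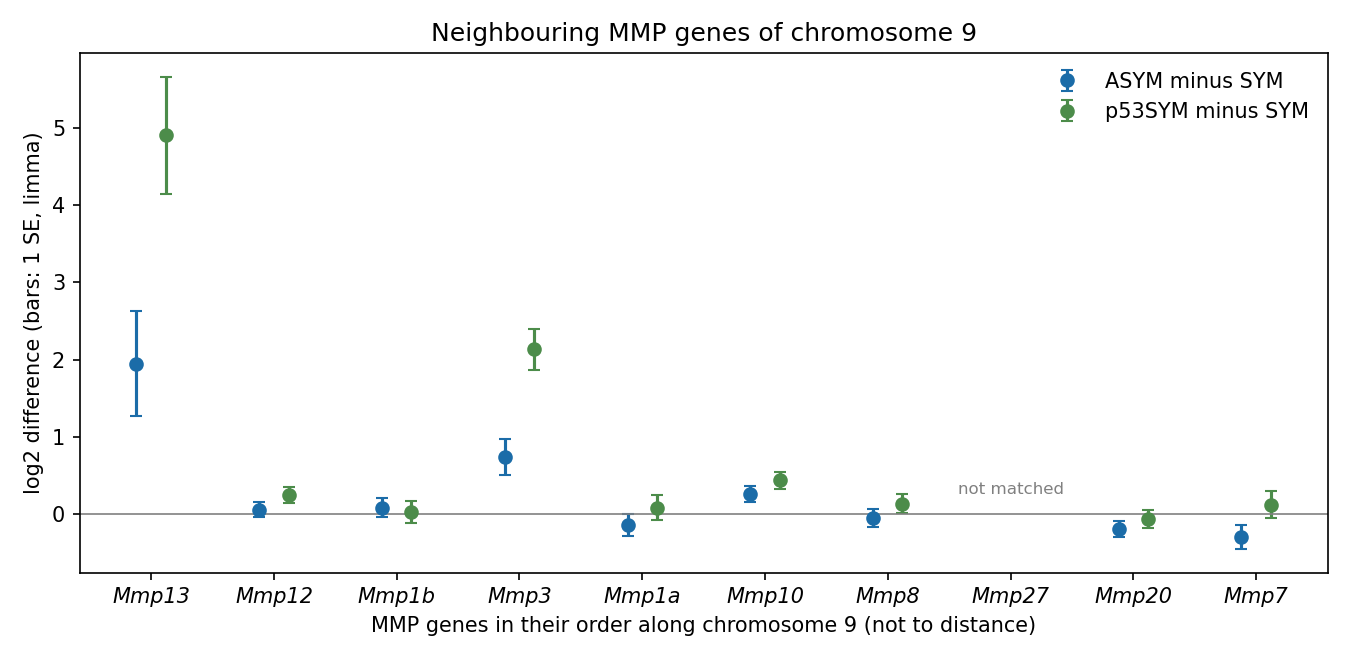
Log2 difference (vertical axis, bars 1 SE from limma) of MMP genes in their order along chromosome 9, with ASYM minus SYM and p53SYM minus SYM as points; distances are not to scale and Mmp27 was not matched. Mmp13 and Mmp3 reach 4.91 and 2.13 in p53SYM minus SYM, and the 6 neighbours outside the members stay between −0.07 and 0.24.

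Of 17 other MMP and TIMP genes, 13 were matched and 6 of these lay under the 25th percentile. Limma called Mmp11 and Mmp23 among them. Mmp11 had a mean of 8.53 in ASYM, 7.69 in SYM and 7.93 in p53SYM and rose by 0.83 ± 0.11 from SYM to ASYM (adjusted p 0.000557). Its difference between ASYM and p53SYM, 0.60 ± 0.12, was called (adjusted p 0.00533), but not without p53SYM replicate 2 (adjusted p 0.0567) or with the hybridization-control covariate (0.257). Mmp23 had a mean of 6.09 in ASYM, 6.45 in SYM and 5.43 in p53SYM, and p53SYM minus SYM was −1.02 ± 0.11 (adjusted p 0.000151).

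Genes that share the pathway with the members were read from 5 further lists. Over all probe sets, limma called 10.9% higher and 11.0% lower in ASYM against SYM, 15.6% and 15.5% in ASYM against p53SYM, and 10.2% and 15.1% in p53SYM against SYM, and the medians were −0.06, −0.06 and 0.04. The matrix substrates, 21 genes on 24 probe sets, had 15 higher and 2 lower in ASYM than in p53SYM (62.5% and 8.33% of the list, with 4 of the 15 being probe sets of Vcan) with a median difference of 0.71. In p53SYM minus SYM, 3 were higher and 14 lower (12.5% and 58.3%, again with 4 probe sets of Vcan among the lower) with a median of −0.86. For ASYM minus SYM the list had 3 higher and 1 lower (12.5% and 4.17%), with a median of −0.07.

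Col2a1, a substrate of Mmp13, read 11.78, 11.19 and 11.76 in ASYM, 12.17, 11.62 and 11.93 in SYM and 6.85 and 6.87 in p53SYM, and p53SYM minus SYM was −5.05 ± 0.19 (adjusted p 2.22e-07). Col3a1 averaged 8.80, 9.07 and 6.38 in ASYM, SYM and p53SYM (p53SYM minus SYM −2.68 ± 0.37, adjusted p 0.000621), and Nid2 averaged 8.16, 7.93 and 5.87 (−2.06, adjusted p 0.0004). Tnc averaged 10.48, 10.59 and 8.51 (−2.09, adjusted p 0.000499).

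The list for activation and control of MMPs, 19 of 21 genes, had 3 higher, 15.8%, and 0 lower in ASYM minus SYM (1 lower at an unadjusted p under 0.05, and 0 by the rank product test), 7 and 1 in ASYM minus p53SYM (36.8% and 5.26%) and 3 and 2 in p53SYM minus SYM (15.8% and 10.5%). Its medians were 0.16, 0.25 and 0.00. Thbs1 rose by 1.13 from SYM to ASYM (adjusted p 0.000662). Thbs2 averaged 8.41, 8.26 and 6.76 in ASYM, SYM and p53SYM, and p53SYM minus SYM was −1.50 (adjusted p 0.000311). Plat was higher in ASYM than in p53SYM by 1.04 (adjusted p 0.0167). The call was lost with the covariate, where the difference was 1.11 (adjusted p 0.207), and also without either p53SYM array. The ADAM and ADAMTS list, 20 of 26 genes on 21 probe sets, had 5 higher and 1 lower (23.8% and 4.76%), 7 and 5 (33.3% and 23.8%), and 2 and 4 (9.52% and 19.0%) in the same 3 comparisons, with medians of −0.04, −0.03 and 0.06. Adam8 rose by 1.58 ± 0.20 from SYM to ASYM (adjusted p 0.000481), and ASYM minus p53SYM for Adam19 was 1.94 ± 0.14 (adjusted p 2.42e-05). The p53SYM minus SYM difference of Adam12 was −1.23 (adjusted p 0.000423), and ASYM minus SYM was −1.16 for Adamts2 (adjusted p 0.00142).

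**Figure D4:**
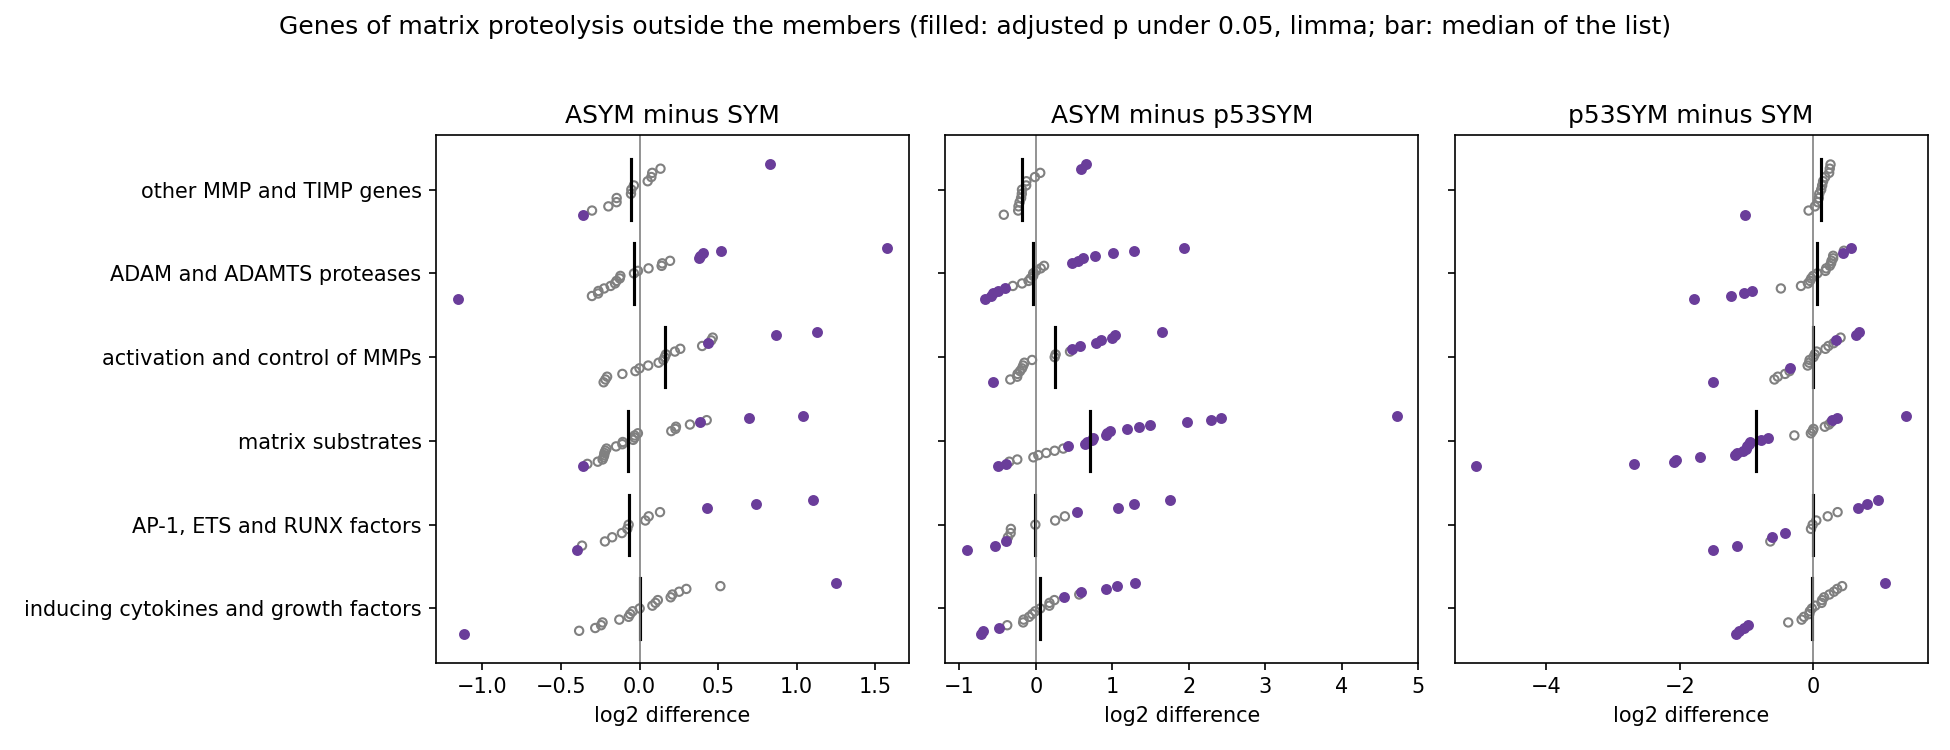
Log2 difference of each probe set of the 6 lists (horizontal axis) in the 3 comparisons, with filled points for an adjusted p under 0.05 in limma and bars for the median of the list. The matrix substrates have medians of 0.71 in ASYM minus p53SYM and −0.86 in p53SYM minus SYM.

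Factors that bind AP-1, ETS and RUNX motifs, 12 genes on 13 probe sets, had 3 higher and 1 lower (23.1% and 7.69%), 4 and 3 (30.8% and 23.1%), and 3 and 4 (23.1% and 30.8%) in those comparisons, with medians of −0.07, −0.0059 and −0.012. Fos had a mean of 9.01 in ASYM, 7.91 in SYM and 7.26 in p53SYM, while Fosl1 averaged 9.62, 9.56 and 10.52, so the p53SYM mean was the lowest for Fos and the highest for Fosl1. For Fos the p53SYM and SYM arrays overlapped and p53SYM minus SYM, −0.65, was not called (adjusted p 0.229). Fosl1 rose by 0.96 ± 0.20 from SYM to p53SYM (1.95-fold, adjusted p 0.00584). Without p53SYM replicate 1, which leaves 1 array in that group, its difference was 0.83 and the call was lost (adjusted p 0.0551). The call of Fos in ASYM against SYM (1.10, adjusted p 0.0356) was lost with the hybridization-control covariate, where the difference was 1.07. It was also lost without ASYM replicate 2, ASYM replicate 3, SYM replicate 1 or SYM replicate 2 (adjusted p 0.0909 to 0.137 over these fits and the covariate). Etv4 and Etv5, of the ETS factors, had p53SYM minus SYM differences of −1.14 (adjusted p 0.00131) and −1.51 (adjusted p 0.000139). Inducing cytokines and growth factors, 18 genes on 19 probe sets, had 1 higher and 1 lower (5.26% each), 5 and 3 (26.3% and 15.8%), and 1 and 4 (5.26% and 21.1%), with medians of 0.00, 0.06 and −0.02. Pdgfb had a mean of 5.84 in ASYM, 6.96 in SYM and 5.85 in p53SYM, and ASYM minus SYM was −1.12 (adjusted p 4.33e-05). Tgfb1 and Tgfb3 were lower in p53SYM than in SYM by differences of −1.15 (adjusted p 0.00137) and −1.04 (adjusted p 0.00144). Fgf2 had a mean of 6.50 in ASYM, 5.26 in SYM and 6.33 in p53SYM. Its call in ASYM against SYM (1.25, adjusted p 0.0135) was lost with the covariate, where the difference was 0.93. It was also lost without ASYM replicate 2 or SYM replicate 3 (adjusted p 0.0555 to 0.0956 over these fits and the covariate). Over all 6 lists, 109 probe sets, 16 were higher and 5 lower in ASYM than in SYM (14.7% and 4.59%), 40 and 14 in ASYM against p53SYM (36.7% and 12.8%), and 12 and 29 in p53SYM against SYM (11.0% and 26.6%), beside 10.9% and 11.0%, 15.6% and 15.5%, and 10.2% and 15.1% of all probe sets. The 54 calls in ASYM against p53SYM became 32 without p53SYM replicate 2 and 18 with the hybridization-control covariate, and the 7009 calls over all probe sets became 2781 and 1020. The medians of the 109 were −0.03, 0.06 and −0.0045.

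**Figure D5:**
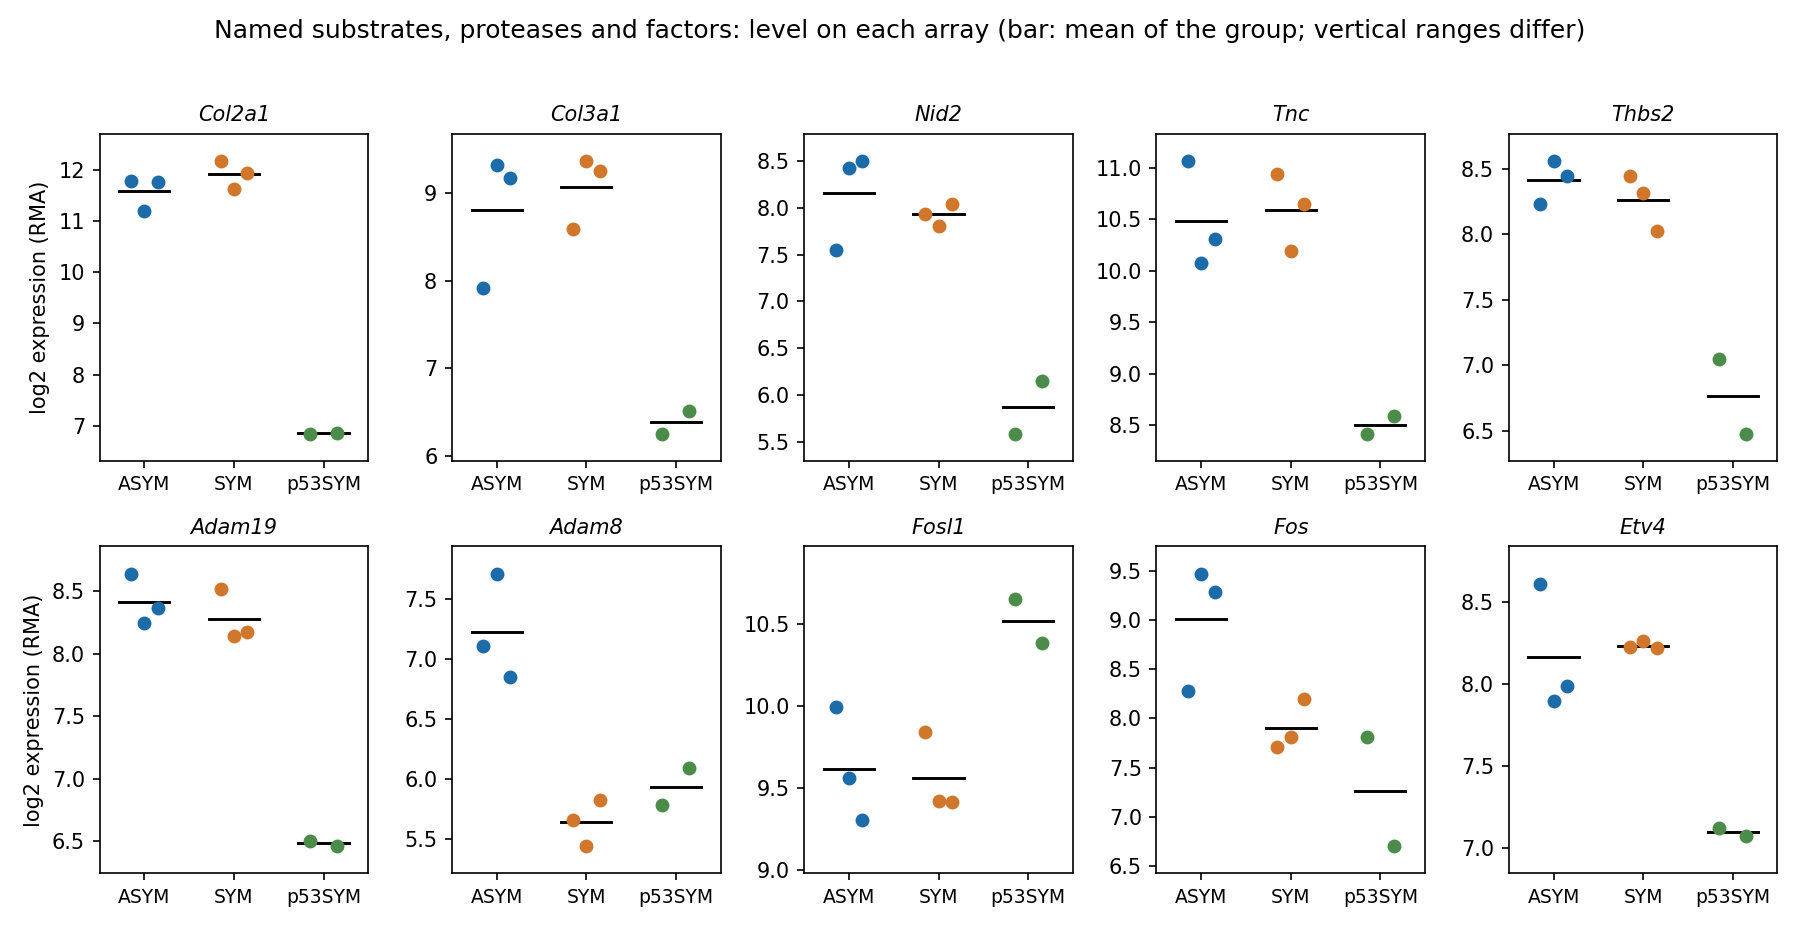
Level of 10 named list genes on each array, as log2 RMA expression on the vertical axis, with arrays as points and the group mean as a bar; the vertical ranges differ between panels. Col2a1 averages 6.86 in p53SYM and 11.91 in SYM, and Fosl1 is the gene of the 10 whose p53SYM arrays lie above all others.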

How the data were processed

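Expression was measured on 8 Affymetrix mouse arrays, 3 of ASYM, 3 of SYM and 2 of p53SYM cultures. The deposited values are log2 expression, made by the authors with RMA over probe sets redefined by RefSeq transcript; no further normalization was applied. Of 22587 probe sets, 64 controls were set aside and 18294 of 22523 were named (81.2%) from a RefSeq table. Members, lists and tests were chosen with earlier results of these data known. limma 3.58.1 (R 4.3.3) fitted the 3 group means to all arrays, and p-values were adjusted by Benjamini-Hochberg across the 22523. A re-implemented rank product test used 100 permutations and a pfp under 0.05. Other steps used Python 3.11.15, numpy 2.4.6, pandas 2.3.3 and matplotlib 3.10.9. Methods were tested on simulated data. Named genes are the members, label checks, markers, list genes past the threshold (up to 4 with the largest difference in each of 5 lists), and the 5 profiles most alike. Alternatives were a replicate block, the hybridization-control level as covariate, the 2 compared groups only, a prior trend, a filter at the 25th percentile, identical values once, arrays quantile-normalized again or centred, a minimum difference of 1, a pfp under 0.01, and each array left out.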

Additional observations from a re-analysis of the deposited data

How the results depend on the processing

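Of 477 member differences under the alternatives, 466 moved by less than 1 within-group SD and 11 by more, 6 with arrays quantile-normalized again and 5 with the hybridization-control covariate. Over the limma alternatives other than the minimum difference, 52 member calls were lost and 4 gained. In ASYM against SYM the losses were Mmp19 (lost 9 times), Mmp3 (7), Timp1 (4) and Mmp2 (3). In ASYM against p53SYM they were Timp3 (6), Mmp14 (3) and Mmp13 (2). In p53SYM against SYM they were Mmp19 (8), Mmp10 (6) and Mmp2 (4). No member difference that limma called changed sign; among those not called, ASYM minus SYM of Timp2, ASYM minus p53SYM of Mmp9 and Mmp19 and p53SYM minus SYM of Mmp9 did. Of 1200 values of the other named genes, 1128 kept direction and side of the threshold, 46 lost the call, 11 gained it and 15 changed sign.

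With the replicate block, limma called 5382, 8341 and 6376 probe sets in ASYM against SYM, ASYM against p53SYM and p53SYM against SYM (4942, 7009 and 5715 without it), 6, 7 and 6 members, and 28, 59 and 46 list genes. In ASYM against SYM it gained Mmp13 and lost Mmp19, in ASYM against p53SYM it gained Mmp9, and in p53SYM against SYM it lost Mmp19. Deviations from the group mean on same-numbered ASYM and SYM arrays correlated over probe sets at r = 0.27, 0.03 and 0.38. For ASYM and SYM arrays with different numbers, r ran from −0.41 to 0.12. Same-numbered p53SYM arrays gave 0.01 and −0.23 with ASYM and 0.20 and 0.04 with SYM. These correlations do not settle whether the replicate numbers pair the samples.

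With the hybridization-control level as covariate, 3062 and 1020 probe sets were called in the first 2 comparisons, 3 members in ASYM against SYM and 18 list genes in ASYM against p53SYM; that level is high on both p53SYM arrays, and the cause was not tested. With arrays quantile-normalized again, 4 members were called in p53SYM against SYM (5363 probe sets); the cause was not tested. A stricter minimum difference of 1 left 464, 681 and 735 probe sets, 0, 3 and 3 members and 7, 17 and 21 list genes. The stricter pfp under 0.01 left 301 and 154 probe sets and 1 member in each rank product comparison.

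With 1 array left out, and so fewer samples, limma called 3493 to 4637, 2781 to 7261 and 3093 to 5625 probe sets, 3 to 6, 3 to 6 and 4 to 7 members and 15 to 21, 32 to 56 and 30 to 40 list genes. The lowest counts of probe sets in the comparisons with p53SYM, 2781 and 3093, came without p53SYM replicate 2, where the lone array is assumed to vary like the other groups. The rank product test called 363 to 465 probe sets (822 with all arrays) and 0 to 2 members in ASYM against SYM, and 131 to 179 (455) and 0 to 2 in ASYM against p53SYM.

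The sign changes were all in differences that were not called. With the covariate, ASYM minus SYM became −0.097 for Thbs2 and −0.087 for Fosl1, and ASYM minus p53SYM became −0.50 for Fgf2 and 0.029 for Pdgfb, which was 0.016 with arrays quantile-normalized again. With 1 array left out, ASYM minus SYM ran from −0.52 to 0.18 for Col3a1, from −0.13 to 0.22 for Fosl1 (negative in 3 fits, −0.011 and −0.014 in the other two), from −0.40 to 0.094 for Tnc (also 0.063) and from −0.29 to 0.065 for Etv4 (also 0.019), and ASYM minus p53SYM ran from −0.071 to 0.057 for Pdgfb (also 0.046). The cause was not tested.

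Calls are limited by 2 arrays of p53SYM, by 1 line for each state, and by signal near the dim end of the arrays for Mmp9, Mmp10, Mmp19, SYM replicates 2 and 3 of Mmp13, and the chromosome 9 neighbours.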
